A study of Mus musculus with 4 samples.

Results

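The genes described here are 10 enzymes and carriers of thiol-based antioxidant defence, measured in mouse bone marrow-derived macrophages with and without OGT, the transferase that adds the sugar O-GlcNAc to proteins inside the cell. They were taken by name from the deposited table of 52550 Ensembl genes, and all 10 were found in it. They are Srxn1, Gclm, Gclc, Nqo1, Txnrd1, Txn1, Prdx1, Gsr, Gstp1 and Gstm1. The 4 groups were wild-type (WT) cells at 0 h, WT cells at 24 h and OGT knockout (OGT-KO) cells at each of these times, with 1 library per group. Per the labels, marrow cells of every group were grown for 7 days in M-CSF at 20 ng/mL, the growth factor that turns them into macrophages, and the 24 h cells were polarised toward the M2 state by 24 h of IL-4, also at 20 ng/mL. The 0 h label was taken to mean no IL-4. No culture held for 24 h without IL-4 is labelled, so a difference between 24 h and 0 h holds both IL-4 and time in culture. How Ogt was deleted, and the age, sex and strain of the mice, are not stated in the labels, and nothing there says whether the libraries came from separate animals.

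Glutathione is a small thiol that donates electrons to peroxides and reactive compounds. Glutamate-cysteine ligase, made of a catalytic (Gclc) and a modifier (Gclm) subunit, carries out the step that limits its synthesis, glutathione reductase (Gsr) returns it to the reduced state, and glutathione transferases such as Gstp1 and Gstm1 couple it to other molecules. Thioredoxin (Txn1) and its selenium-containing reductase (Txnrd1) form a parallel system, which keeps peroxiredoxins such as Prdx1 active against hydrogen peroxide. Sulfiredoxin (Srxn1) repairs peroxiredoxins whose active cysteine has been overoxidised, and Nqo1 reduces quinones. Many of these genes are known targets of NRF2, a transcription factor encoded by Nfe2l2 that binds antioxidant response elements and is held in check by KEAP1. Macrophages make oxidants with their NADPH oxidase and therefore depend on such enzymes.

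Sequence upstream of the start site is shown for Srxn1 and Gclm, whose levels differed most between genotypes in these libraries at 24 h and at 0 h, and for Prdx1, the most abundant of the 10 and a substrate of sulfiredoxin. The sequences are from RefSeq (GRCm38.p6), on the + strand, and stop where an annotated exon begins. Capitals mark matches, on either strand, to TGACNNNGC, the core of the antioxidant response element, or to TGAGTCA, the core bound by AP-1 factors, with which it can overlap.
Srxn1, chr2:152105274-152105515: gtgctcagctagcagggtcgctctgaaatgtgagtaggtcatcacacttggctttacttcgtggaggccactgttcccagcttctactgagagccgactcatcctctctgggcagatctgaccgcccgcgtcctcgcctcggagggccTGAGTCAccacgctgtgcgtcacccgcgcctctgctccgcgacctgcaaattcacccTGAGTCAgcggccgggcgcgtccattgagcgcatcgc
Gclm, chr3:122245307-122245556: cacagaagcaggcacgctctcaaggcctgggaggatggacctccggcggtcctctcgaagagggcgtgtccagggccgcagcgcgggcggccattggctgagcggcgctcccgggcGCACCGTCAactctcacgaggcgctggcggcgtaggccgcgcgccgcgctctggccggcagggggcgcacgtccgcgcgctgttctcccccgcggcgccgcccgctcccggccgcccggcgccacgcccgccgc
Prdx1, chr4:116685349-116685543: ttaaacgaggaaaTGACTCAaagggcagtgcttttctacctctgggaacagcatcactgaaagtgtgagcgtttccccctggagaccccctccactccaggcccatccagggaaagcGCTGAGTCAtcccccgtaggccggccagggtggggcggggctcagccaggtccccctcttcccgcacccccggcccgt
The Srxn1 stretch held TGAGTCA at 102 and 45 bases upstream of the RefSeq start site. Its match to TGACNNNGC lay past the start site, from base 28 on. Gclm held TGACNNNGC at 134 bases upstream. In Prdx1 the matches were to TGAGTCA at 237 bases upstream, and at 133 bases upstream to TGACNNNGC, which there contains a TGAGTCA.
RefSeq windows of 300 bases (250 upstream and 50 downstream of a start site) were found for 8 of the 10 genes, 11 windows in all, with none matched for Gclc and Gsr. TGACNNNGC occurred in 4 of these 11 windows, those of Srxn1, Gclm, Prdx1 and 1 of Txnrd1, against 12.4% of all 32851 windows. TGAGTCA occurred in 3, those of Srxn1, Prdx1 and Gstp1, against 5.2% of all windows. These are matches of letters in a short window and describe no binding.

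Values were read as FPKM, fragment counts scaled by transcript length and library size, and totals ran from 338704 to 353093 FPKM per library. From genes with 1 exon, whose commonest product of value and length was taken as 1 fragment, a 2 kb transcript at 1 FPKM was estimated to rest on 40.0 to 43.8 fragments. Ogt itself stood at 27.4 FPKM (WT) and 14.2 (OGT-KO) at 0 h, and at 29.8 and 14.5 at 24 h, so OGT-KO libraries still held transcripts of the gene. Mgea5, which encodes the enzyme that removes the sugar, was at 31.4 and 14.9 at 0 h and at 23.4 and 10.6 at 24 h. All 10 macrophage markers examined were at 1 FPKM or more in all 4 libraries. Neutrophil markers summed to 3322 FPKM in WT and 2121 in OGT-KO at 0 h, and to 1043 and 681 at 24 h, and 10 and 8 of these 10 markers were lower in OGT-KO. Megakaryocyte markers summed to 100.6 and 48.0 at 0 h and to 49.0 and 29.0 at 24 h. Erythroid markers, whose cells are rich in peroxiredoxins, summed to at most 0.667 FPKM in any library, with Hbb-bt at 0 in all. The lists for eosinophils, B cells, fibroblasts, endothelial cells, mast cells and basophils, dendritic cells, and T and NK cells summed to between 0.589 and 34.0 FPKM.

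The 10 genes spanned a wide range of levels. In WT cells at 0 h Prdx1 stood highest, at 379.8 FPKM, 93rd in the table, followed by Txn1 at 123 and Gstm1 at 69.5. Nqo1 stood lowest, at 0.943. Summed over the 10, WT reached 700.6 FPKM at 0 h and 715 at 24 h, against 464 in OGT-KO at 0 h and 542 in OGT-KO at 24 h. Both knockout libraries were below both WT libraries, as they were without Prdx1, with sums of 321 and 333 FPKM in WT at 0 h and 24 h against 237 and 256 in OGT-KO.

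**Figure D1:**
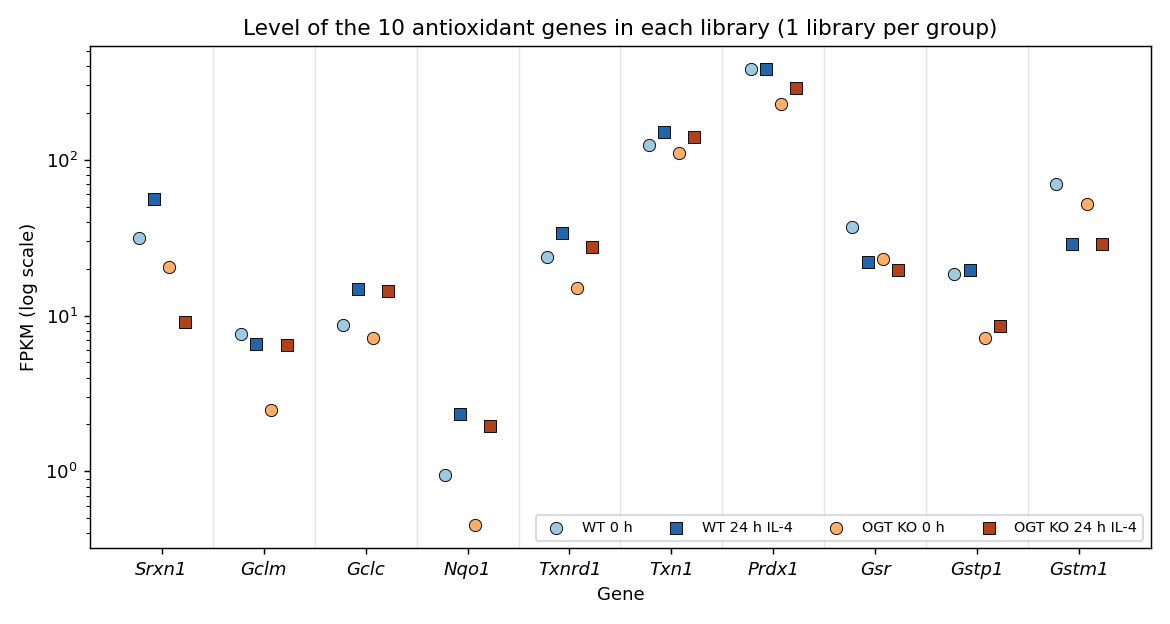
FPKM (vertical, log scale) of each of the 10 genes in the 4 libraries. Each point is 1 library, with circles for 0 h, squares for 24 h of IL-4, blue for WT and orange to red for OGT knockout. Srxn1 ran from 55.9 in WT at 24 h to 9.08 in OGT-KO at 24 h. Gstp1 was at 18.5 and 19.6 in WT and at 7.21 and 8.56 in OGT-KO, at 0 h and 24 h.

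Srxn1, the sulfiredoxin gene (ENSMUSG00000032802, chromosome 2, 152105516 to 152111376, + strand), had the widest spread of the 10. Its WT levels were 31.5 FPKM at 0 h and 55.9 at 24 h, and it was at 20.3 in OGT-KO at 0 h and 9.08 in OGT-KO at 24 h. The 2 genotypes moved apart with IL-4, the WT value being 1.77 times its 0 h level and that of OGT-KO 44.6% of its own. On the log2 scale of FPKM + 1, used for all differences here, OGT-KO was lower than WT by a difference of −0.61 at 0 h and −2.50 at 24 h. At 24 h OGT-KO held 16.2% of the WT level, and only 6 of 11302 genes kept in that comparison had a more negative difference. The response of OGT-KO minus that of WT was −1.89, with 27 of 12000 genes below it. Fragments behind these values were estimated at 1947 and 3346 in WT and 1148 and 518 in OGT-KO, at 0 h and 24 h, taking all annotated exons as the length. Since each group is a single library, the spread between cultures is unknown and no p-value is given. In RNA of a culture, fewer cells of a type and less RNA per cell cannot be told apart.

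Prdx1, 1 of the peroxiredoxin genes, differed less than Srxn1. Prdx1 (ENSMUSG00000028691, chromosome 4, 116685544 to 116700822, + strand) was at 379.8 and 383 FPKM in WT at 0 h and 24 h, and at 227 and 286 in OGT-KO. WT was the same at both times to within 1%, whereas OGT-KO was lower at 0 h (−0.74) and less so at 24 h (−0.42). The other peroxiredoxin genes lacked a difference of this size toward lower levels. At 0 h and 24 h, Prdx2 differed by 0.04 and 0.05, Prdx3 by 0.01 and −0.03, and Prdx4 by 0.19 and −0.08. Prdx5 differed by 0.34 and 0.24, and Prdx6 by −0.11 and −0.02. The ratio of Srxn1 to Prdx1 levels within a library was 0.0831 in WT and 0.0895 in OGT-KO at 0 h. At 24 h it was 0.146 in WT and 0.0317 in OGT-KO. The 0 h ratios thus lay close together, both genes being lower in OGT-KO, and those at 24 h lay far apart. Of the 50-base stretches in Prdx1 transcripts, 8.81% also occur in transcripts of other genes. Among these is the copy Gm21399, at 24.2, 20.5, 12.0 and 16.4 FPKM in the WT 0 h, WT 24 h, OGT-KO 0 h and OGT-KO 24 h libraries, and how reads were divided between the copies is not stated in the labels.

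Thioredoxin and its reductase were higher at 24 h in each genotype. Txn1 (ENSMUSG00000028367, chromosome 4, 57943373 to 57956411, − strand) was the steadiest of the 10, at 123 and 149 FPKM in WT and 109.6 and 139.8 in OGT-KO, at 0 h and 24 h. Its genotype differences were −0.17 at 0 h and −0.09 at 24 h. Txnrd1 (ENSMUSG00000020250, chromosome 10, 82833951 to 82897712, + strand) was at 23.6 and 33.7 FPKM in WT and at 15.1 and 27.3 in OGT-KO. Its IL-4 response was 0.49 in WT and 0.82 in OGT-KO, and its genotype difference was −0.62 at 0 h and −0.29 at 24 h. The ratio of Txnrd1 to Txn1 levels was lowest in OGT-KO at 0 h, at 0.137, against 0.192 and 0.226 in WT at 0 h and 24 h and 0.195 in OGT-KO at 24 h.

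The subunits of glutamate-cysteine ligase followed different patterns. Gclc, the catalytic subunit (ENSMUSG00000032350, chromosome 9, 77754535 to 77794485, + strand), was at 8.73 FPKM in WT and 7.16 in OGT-KO at 0 h, and at 14.8 and 14.3 at 24 h. The genotypes lay near each other at each time (−0.26 and −0.05), and both 24 h libraries were above both 0 h libraries, with responses of 0.70 in WT and 0.90 in OGT-KO. Gclm, the modifier subunit (ENSMUSG00000028124, chromosome 3, 122245557 to 122270732, + strand), stood at 7.59 and 6.53 FPKM in WT at 0 h and 24 h, and at 6.47 in OGT-KO at 24 h, but at 2.47 in OGT-KO at 0 h. The knockout library at 0 h stood alone, with 32.5% of the WT level (−1.31), and at 24 h the genotypes differed by −0.01. An estimated 1045 fragments in WT and 311 in OGT-KO lay behind the 0 h values. Only 38 of 11479 kept genes had a more negative difference at 0 h. The response to IL-4 was −0.19 in WT and 1.11 in OGT-KO. Gclm was 1 of 8 genes, among 7336 at 5 FPKM or more somewhere, that were at least 2-fold lower in the library of OGT-KO at 0 h than in every other library while the others lay within 0.5 of each other. The same count for low values was 9, 8 and 7 in WT at 0 h, WT at 24 h and OGT-KO at 24 h. This count was added after the values were seen.

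The level of Gclm relative to Gclc was 0.869 in WT at 0 h. It was 0.441 in WT at 24 h, 0.345 in OGT-KO at 0 h and 0.453 in OGT-KO at 24 h. WT at 0 h was the library apart in this ratio, whereas OGT-KO at 0 h was the library apart in the Gclm level. Exons of Gclm overlap those of Gm17494, on the opposite strand, and of Gm6061, both at no more than 0.0337 FPKM in any library. Of the 50-base stretches in Gclm transcripts, 4.58% also occur in transcripts of 146 other genes. Among these are Ppia, which shares 3.24% and was at 111 to 198 FPKM, and Gm10123, which shares 3.07% and was at 166 to 295 FPKM. Both were far above Gclm itself, and how such reads were assigned is not stated in the labels.

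**Figure D2:**
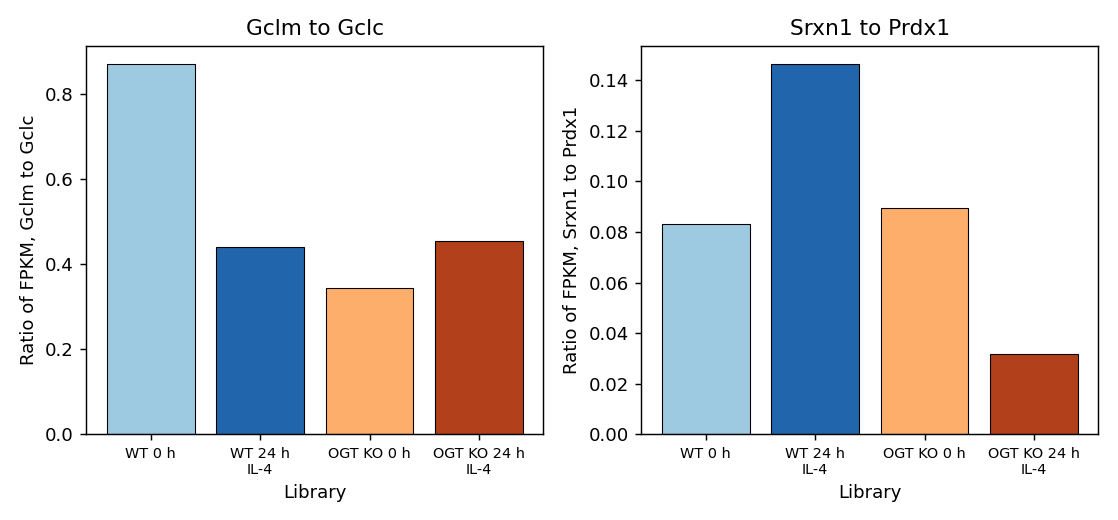
Ratio of FPKM within each of the 4 libraries, for Gclm to Gclc (left) and Srxn1 to Prdx1 (right), with each bar 1 library and both vertical axes starting at 0. Gclm to Gclc was highest in WT at 0 h, at 0.869, and Srxn1 to Prdx1 was 0.146 in WT and 0.0317 in OGT-KO at 24 h.

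Glutathione reductase was lower at 24 h than at 0 h. Gsr (ENSMUSG00000031584, chromosome 8, 33652523 to 33698163, + strand) was at 37.2 and 21.9 FPKM in WT and at 23.0 and 19.7 in OGT-KO, at 0 h and 24 h. WT at 0 h was high and the other 3 libraries lay close together. Its IL-4 response was −0.74 in WT and −0.21 in OGT-KO, and its genotype difference −0.67 at 0 h and −0.15 at 24 h. Nqo1, the quinone reductase (ENSMUSG00000003849, chromosome 8, 107388225 to 107403206, − strand), was scarce, at 0.943 and 2.32 FPKM in WT and 0.45 and 1.95 in OGT-KO. The order of libraries was that of Gclc and Txnrd1, with both 24 h values above both 0 h values. Only an estimated 32 fragments in WT and 14 in OGT-KO lie behind the 0 h values, and these are too few to set the size of a difference. Nqo1 did not reach 1 FPKM in either 0 h library and was left out of the counts for that comparison.

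The glutathione transferases differed from each other. Gstp1 (ENSMUSG00000060803, chromosome 19, 4035407 to 4037985, − strand) was at 18.5 and 19.6 FPKM in WT and at 7.21 and 8.56 in OGT-KO, at 0 h and 24 h. It followed genotype and hardly IL-4, with genotype differences of −1.25 and −1.11 at 0 h and 24 h and responses of 0.08 and 0.22. An estimated 627 and 644 fragments in WT and 223 and 268 in OGT-KO lay behind its values. Gstm1 (ENSMUSG00000058135, chromosome 3, 108012255 to 108017973, − strand) was at 69.5 and 28.7 FPKM in WT and at 51.8 and 28.9 in OGT-KO. It followed time, with responses of −1.25 in WT and −0.82 in OGT-KO and a genotype difference of 0.01 at 24 h. The ratio of Gstp1 to Gstm1 was 0.266 in WT and 0.139 in OGT-KO at 0 h, and 0.683 and 0.297 at 24 h. Both genes have close copies, and 33.7% of the 50-base stretches of Gstp1 and 18.9% of those of Gstm1 occur in other transcripts, which makes their values less certain. The copies Gstp2 and Gstm3 were listed at 0 in all 4 libraries. The pseudogene Gstp-ps was at 2.64 and 1.68 FPKM in WT and 0.499 and 0.809 in OGT-KO, also lower in OGT-KO at both times. Gstm2-ps1 shares 14.1% of the 50-base stretches of Gstm1. It was at 1.44 and 0.395 FPKM in WT and 0.676 and 0.276 in OGT-KO, at 0 h and 24 h.

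Before IL-4, all 10 genes were lower in OGT-KO, while 59.5% of the 11479 kept genes were. Of the 9 that were kept, 2 were at least 2-fold lower (Gclm and Gstp1), against 0.871% of kept genes, and none was 2-fold higher, against 0.88%, or 1.75% of kept genes in either direction. With a pseudocount of 5 in place of 1, Gclm (−0.75) and Gstp1 (−0.95) were short of 2-fold. The median difference of the 9 was −0.62, and that of all kept genes −0.05. Of the 9, 6 were among the 5% of kept genes with the most negative differences, namely Gclm, Gstp1, Prdx1, Gsr, Txnrd1 and Srxn1. The list was chosen with results of these libraries known, so these counts describe it and do not test it. The sums of neutrophil, monocyte and megakaryocyte markers were also lower in OGT-KO at 0 h, and the part of these markers in this shift was not tested. Monocyte markers summed to 393 FPKM in WT and 222 in OGT-KO, with 5 of 7 lower. Most of each sum was Chil3, at 334 and 182 FPKM. Ccr2 (14.3 in WT and 16.3 in OGT-KO) and Vcan (0.246 and 0.325) were higher in OGT-KO.

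After 24 h of IL-4 most of the 10 lay near their WT level. Of the 10, 2 were 2-fold lower in OGT-KO (Srxn1 and Gstp1), against 0.619% of the 11302 kept genes, and none was 2-fold higher, against 0.832%, or 1.45% in either direction. With a pseudocount of 5, Gstp1 (−0.86) was short of 2-fold and Srxn1 was not. The median was −0.16, beside −0.05 for all kept genes. Of the 10 differences 9 were negative, the exception being Gstm1 at 0.01, while 58.6% of kept genes were. Gclm was among the 9 by only −0.01. When the libraries were rescaled to a common median, it came to 0.03 and the median of all kept genes to −0.01. Srxn1 and Gstp1 were also the only members among the lowest 5%. Next to them came Prdx1 (−0.42) and Txnrd1 (−0.29), and the other 6 were between −0.17 and 0.01. Neutrophil and megakaryocyte markers were lower in OGT-KO at this time too, by the sums given above. Monocyte markers summed to 1770 FPKM in WT and 1186 in OGT-KO, with 5 of 7 lower, and Chil3 alone gave 1738 and 1164 of these sums. The part of all these markers was again not tested.

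**Figure D3:**
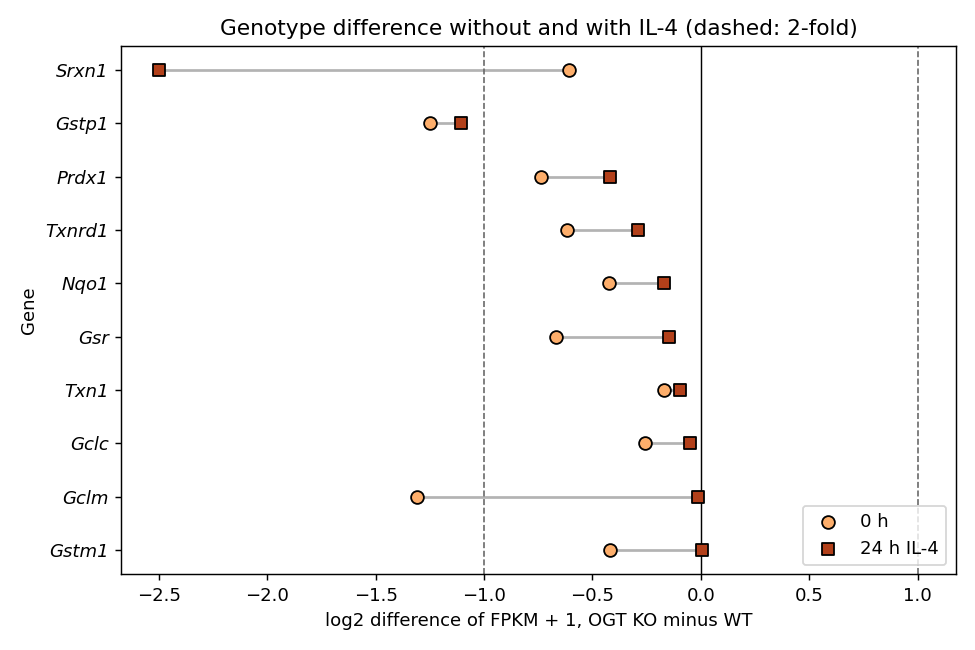
Difference between OGT knockout and WT in log2 of FPKM + 1 (horizontal) for each of the 10 genes, with circles for 0 h and squares for 24 h of IL-4, each from 1 library per group. Dashed lines mark 2-fold. Every circle lies left of 0, Gclm moves from −1.31 to −0.01, and Srxn1 from −0.61 to −2.50.

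The response to IL-4 differed in direction among the 10. In WT, 7 were higher at 24 h and 3 lower, while 52.0% of 11687 kept genes were higher. Prdx1 was among the 7 by only 0.01, and came to −0.04 when the libraries were rescaled to a common median. Of the 10, 1 was at least 2-fold lower (Gstm1), against 6.26% of kept genes, and none 2-fold higher, against 4.76%, or 11.0% in either direction. In OGT-KO, 2 were 2-fold higher (Gclm and Nqo1), against 5.16% of 11577 kept genes, and 1 was 2-fold lower (Srxn1), against 5.99%, or 11.1% in either direction. Nqo1 was kept there only through its 24 h library, at 0.45 FPKM at 0 h and 1.95 at 24 h. A filter at 5 FPKM left it out. With a pseudocount of 5, Gclm, Nqo1 and Srxn1 came to 0.62, 0.35 and −0.85, short of 2-fold. With one of 0.1, Nqo1 passed it in WT too, at 1.21. The medians were 0.18 in WT and 0.34 in OGT-KO, beside 0.02 and 0.03 for all kept genes. Gclc, Nqo1, Txnrd1 and Txn1 were higher and Gsr and Gstm1 lower at 24 h in both genotypes. All 10 macrophage markers were lower at 24 h in each genotype, their sum being 21788 FPKM at 0 h and 9029.7 at 24 h in WT, and 19017 and 9186 in OGT-KO. Of 10 neutrophil markers, 9 were lower at 24 h in each genotype. Monocyte markers summed higher, at 1770 against 393 FPKM in WT and 1186 against 222 in OGT-KO. Most of each sum was Chil3, at 334 and 1738 FPKM in WT and 182 and 1164 in OGT-KO, at 0 h and 24 h. Of the 7 monocyte markers, 5 were lower at 24 h in WT and 6 in OGT-KO. The part of these markers in the responses was not tested.

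The response in OGT-KO minus that in WT was positive for 9 of the 10 genes, Srxn1 being the exception, and for 50.9% of all 12000 kept genes. Only Gclm (1.30) passed 2-fold upward, against 1.27% of 12000 genes, and only Srxn1 passed it downward, against 1.16%, or 2.42% in either direction. With a pseudocount of 5, Gclm came to 0.75. The others ran from 0.07 for Txn1 to 0.52 for Gsr. This difference uses all 4 libraries. For the 9 genes it restates that OGT-KO lay lower, relative to WT, at 0 h than at 24 h.

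**Figure D4:**
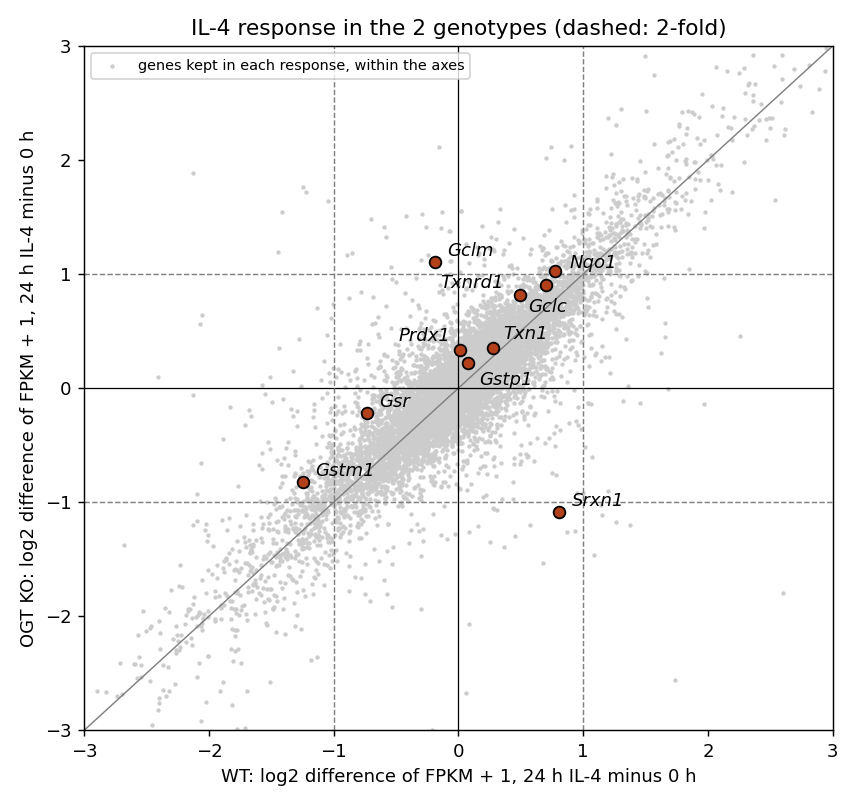
IL-4 response as the difference in log2 of FPKM + 1 between 24 h and 0 h, in WT (horizontal) and in OGT knockout (vertical). Red points are the 10 genes, grey points the other genes kept in each response within the axes, dashed lines 2-fold and the diagonal equal responses. Srxn1 (0.81 and −1.08) and Gclm (−0.19 and 1.11) lie far from the diagonal on opposite sides of it.

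Genes with a profile like that of the members were sought among 4393 protein-coding genes that reached 10 FPKM in some library, by the distance between log2 profiles centred over the 4 libraries. They are given for the 3 members with the widest range. The gene nearest to Gstp1 was Ogt, at a distance of 0.27, followed by Rpl29, Chmp3, Bcl2a1b and Snx3. Nearest to Gclm were Rbm42 (24.1, 25.7, 9.77 and 22.1 FPKM in the WT 0 h, WT 24 h, OGT-KO 0 h and OGT-KO 24 h libraries), Ss18, Ttc33, Slc25a51 and Plau, at distances of 0.20 to 0.35. Srxn1 had no close match. Its nearest genes were Ccdc115, Emp1, Txndc5, Cpeb4 and Gcnt1, at distances of 0.71 to 0.98, and Emp1 (41.1, 56.7, 41.1 and 16.1 FPKM in the same order) lacked its genotype difference at 0 h. Among the members themselves the closest pair was Gclc and Nqo1, at 0.17, and Srxn1 was at 1.12 or more from each of the others. With 4 libraries such likeness is loose.

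Other genes of the same pathways, 135 in 11 lists, showed little of the genotype shift in their medians. Of those kept, 1 of 102 was 2-fold higher in OGT-KO at 0 h and none 2-fold lower, against 0.88% and 0.871% of kept genes. At 24 h, 2 of 100 were higher and none lower, against 0.832% and 0.619%. Such counts are too small to be told apart from these shares. The medians of the listed genes, −0.05 at each time, were those of all kept genes. The members were chosen with earlier results of these data known, so their contrast with these lists is partly built in. The gene past 2-fold at 0 h was Nfe2l1, encoding NRF1, a relative of NRF2 that drives proteasome genes, at 8.56 FPKM in WT and 30.6 in OGT-KO. It was also past 2-fold at 24 h, at 11.5 and 33.4, together with Rac1, a small GTPase of the NADPH oxidase, at 42.8 in WT and 100.02 in OGT-KO. Rac1 was low in WT at 24 h and lay at 86.9 and 88.5 FPKM at 0 h.

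Among the 12 genes listed as NRF2 regulators, which include Nfe2l1, 8 of 11 kept were lower in OGT-KO at 0 h and 7 of 11 at 24 h, with medians of −0.10 and −0.11. Nfe2l2 and Keap1 are given as the gene of NRF2 itself and of its main inhibitor, and were chosen after their values were seen. Nfe2l2 was at 79.0 and 73.4 FPKM in WT and 65.6 and 67.8 in OGT-KO, at 0 h and 24 h. Keap1 was at 12.5 and 11.1 in WT and 11.9 and 9.31 in OGT-KO. Of the small Maf partners of NRF2, Mafg differed by −0.32, Maff, near 1 FPKM, by −0.44 and Mafk by 0.01 at 0 h. In the list of 24 other NRF2 targets none of 21 kept genes was past 2-fold between genotypes at either time. Among all kept genes 1.75% were at 0 h and 1.45% at 24 h. The medians of the 21 were −0.15 at 0 h and −0.06 at 24 h. Of the 21, 14 and 13 were lower in OGT-KO, beside 59.5% and 58.6% of all kept genes. Ephx1 of this list was higher in OGT-KO at 0 h, at 16.3 FPKM in WT and 23.3 in OGT-KO (0.49). Hmox1, the heme oxygenase gene, stood at 215 FPKM in WT and 159 in OGT-KO at 0 h (−0.44), and at 203 and 179 at 24 h.

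**Figure D5:**
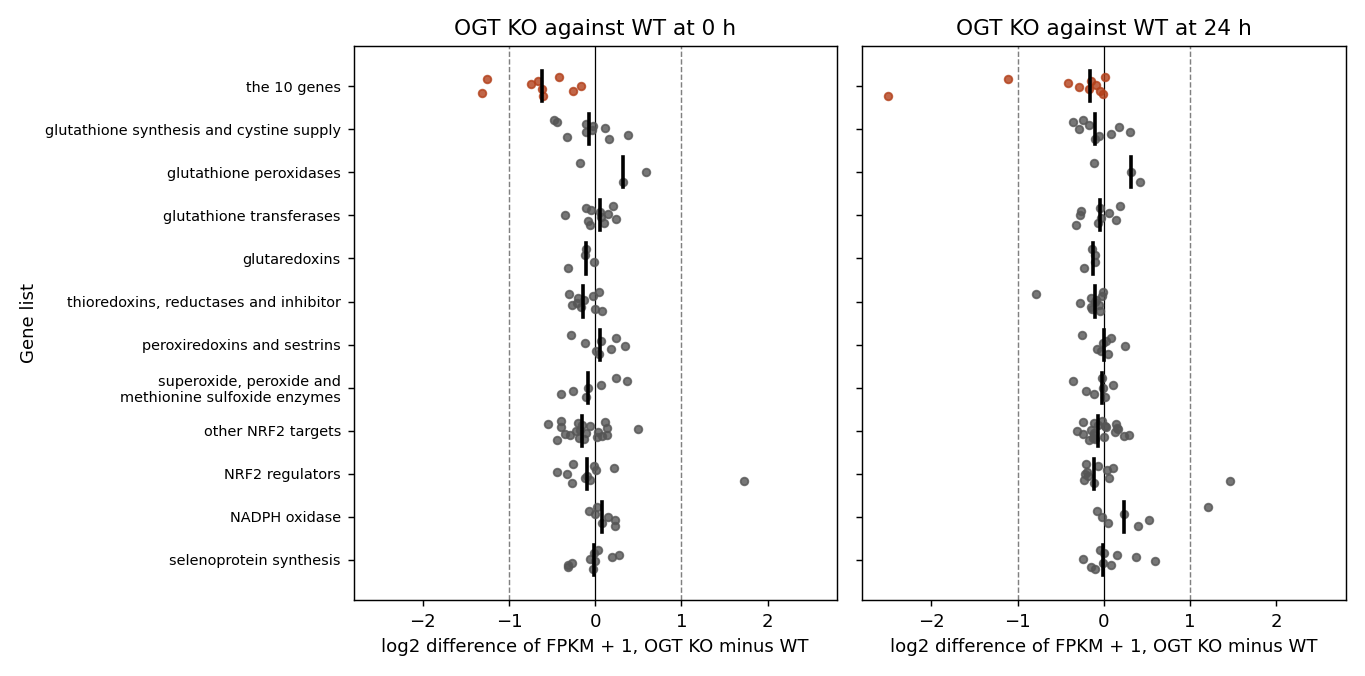
Difference between OGT knockout and WT in log2 of FPKM + 1 (horizontal) at 0 h (left) and 24 h of IL-4 (right). Each point is 1 kept gene, in rows by gene list with the 10 genes on top in red, black bars are list medians and dashed lines 2-fold. The median was −0.62 at 0 h for the 9 of the 10 genes that were kept and −0.16 at 24 h for all 10, while the other lists lay between −0.15 and 0.32 in their medians.

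The IL-4 response of the wider pathways held 5 genes 2-fold higher and 11 lower of 103 kept in WT, and 3 higher and 12 lower of 103 in OGT-KO. Among all kept genes 4.76% were 2-fold higher and 6.26% lower in WT, and 5.16% and 5.99% in OGT-KO. Higher in both were Slc1a5, a glutamine carrier (1.82 in WT and 2.23 in OGT-KO), the glutaredoxin gene Glrx (1.08 and 1.17) and the epoxide hydrolase gene Ephx1 (1.51 and 1.18). Esd, which acts on glutathione thioesters, was past 2-fold in WT at 1.12, with 0.76 in OGT-KO, and Nxn, a thioredoxin relative below 5 FPKM, at 1.26 in WT. Lower in both were the extracellular peroxidase gene Gpx3 (−1.36 and −1.64), the sestrin gene Sesn1 (−1.42 and −1.46), the methionine sulfoxide reductase gene Msrb1 (−1.10 and −1.06), and the ferritin and iron exporter genes Fth1 (−1.19 and −1.13) and Slc40a1 (−2.83 and −2.67). The selenium carrier gene Selenop (−2.60 and −2.42) and Sephs2, which makes the selenium donor for selenoproteins such as Txnrd1 (−1.32 and −1.07), were lower too. Sesn2 was past 2-fold in OGT-KO at −1.13, with −0.97 in WT, as was Msrb2, below 5 FPKM, at −1.41.

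Of 7 genes of the NADPH oxidase, which makes the superoxide from which hydrogen peroxide forms, 6 were lower at 24 h in WT and 5 in OGT-KO. Among all kept genes 48.0% were lower in WT and 47.3% in OGT-KO. Cyba, the membrane partner subunit of the oxidase, was slightly higher in both (0.10 and 0.07). In WT 4 of 7 were 2-fold lower, against 6.26% of all kept genes, namely Cybb (−1.74), Ncf1 (−1.42), Rac2 (−1.05) and Rac1 (−1.01), and in OGT-KO 3 were, against 5.99%, the same without Rac1 (0.17). The macrophage and neutrophil markers were lower at 24 h as well, by the sums given with the responses of the 10 genes, and their part was not tested. Cybb, the catalytic subunit, was at 335 and 99.6 FPKM in WT and 394 and 131 in OGT-KO. Between genotypes its differences were 0.23 at 0 h and 0.39 at 24 h, opposite in sign to those of Srxn1, Prdx1 and Gstp1.

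The 10 genes lie on chromosomes 2, 3, 4, 8, 9, 10 and 19, with a varied picture among their neighbours. Of the nearest protein-coding genes on either side, Scrt2 and Tcf15 beside Srxn1 were listed at 0 in all libraries. Dnttip2, 3656 bases from Gclm, differed between genotypes by 0.27 at 0 h and 0.10 at 24 h. Ndufv1, 22601 bases from Gstp1, differed by −0.27 and −0.34 at 0 h and 24 h. Akr1a1, 33864 bases from Prdx1, was at 430.0 and 402 FPKM in WT and 387 and 384 in OGT-KO. Nfat5, 8708 bases from Nqo1, differed by −0.78 and −0.24, and Mmachc, 1457 bases from Prdx1, by −0.44 and −0.48. The neighbour past 2-fold between genotypes was Chst11, 87786 bases from Txnrd1, at 4.77 FPKM in WT and 1.84 in OGT-KO at 0 h, and at 5.38 and 5.67 at 24 h.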

How the data were processed

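RNA was sequenced in 4 libraries of mouse bone marrow-derived macrophages, WT and OGT knockout at 0 h and 24 h, each built from 1 µg of total RNA. Per the submitters' processing notes, the authors used STAR, StringTie and GRCm38, and the deposited table holds 1 decimal value per gene and library. These deposited values were read as FPKM normalised by the authors, because the header names no unit and the totals differ between libraries. Tool versions, strandedness and the annotation release are not stated there.

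Symbols and positions came from GENCODE M21 (GRCm38, counted from 1), with symbols for 52403 of 52550 genes, and genes sharing a symbol were summed to 52476 names. Differences are of log2(FPKM + 1), with a pseudocount of 1, which understates changes of low genes. A gene was kept if it reached 1 FPKM in at least 1 library of a comparison, and a difference of 1 or more was called 2-fold. The members and lists were chosen with earlier results of these data known. Named are the 10 genes, Ogt, list members past 2-fold at 5 FPKM or more (at most 4 a direction), and the 5 nearest profiles of the 3 members with the widest range. Other names were chosen after their values were seen. The calculation was tested on simulated data for 1 of the 5 comparisons, OGT-KO against WT at 24 h. Alternatives were pseudocounts of 0.1 and 5, no filter, a filter at 5 FPKM, and libraries rescaled to a common median. Shared 50-base stretches were counted in GENCODE transcripts on both strands. Python 3.11.15, pandas 2.3.3 and numpy 2.4.6 were used.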

Additional observations from a re-analysis of the deposited data

Results flagged for a closer look

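Among the 10 genes, 2 had responses to IL-4 of opposite sign in the genotypes, each with 1 library per group. Srxn1 was higher at 24 h in WT (0.81 in log2 of FPKM + 1) and lower in OGT-KO (−1.08). Gclm was slightly lower at 24 h in WT (−0.19) and higher in OGT-KO (1.11), and the latter rests on its low level in OGT-KO at 0 h. When the libraries were rescaled, Prdx1 also had opposite signs, at −0.04 in WT and 0.27 in OGT-KO. The difference between genotypes was not tested, as no group has a second library.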

How the results depend on the processing

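No paired analysis was possible because each group has 1 library, and for the same reason no library could be left out. No sign of a member's difference changed under any setting tried, except for 2 of 49 when the libraries were rescaled, where no difference moved by more than 0.06. The 2 were Prdx1 for IL-4 in WT, at −0.04 after rescaling, and Gclm between genotypes at 24 h, at 0.03. With a pseudocount of 0.1, the genes past 2-fold numbered 1971 and 2031 for IL-4 in WT and OGT-KO, 438 and 388 between genotypes at 0 h and 24 h, and 662 for the difference of responses, and Nqo1 joined Gstm1 in WT for 2 members. With a pseudocount of 5 these counts were 557, 592, 43, 39 and 72. Members past 2-fold then numbered 0 for IL-4 in OGT-KO, 0 between genotypes at 0 h, and 1 (Srxn1) both at 24 h and for the difference of responses. Under it Gclm came to −0.75 and Gstp1 to −0.95 at 0 h, and Gstp1 to −0.86 at 24 h. A filter at 5 FPKM, which tests fewer genes, gave 106 and 93 between genotypes and 141 for the difference of responses. Under it Nqo1 was left out, and 2 members were past 2-fold for IL-4 in OGT-KO. Removing the filter or rescaling kept every count of members past 2-fold. Depth limits Nqo1 most, at an estimated 14 fragments in its lowest library.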

Other observations

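Txn1 and the glutathione peroxidase gene Gpx4, which protects membrane lipids from peroxidation, had nearly the same level in every library, a pair noticed after the values were seen. Txn1 was at 123.2, 149.3, 109.6 and 139.8 FPKM in the WT 0 h, WT 24 h, OGT-KO 0 h and OGT-KO 24 h libraries, and Gpx4 at 123.6, 151.1, 109.7 and 139.7. Gpx4 was also the gene with the profile nearest to that of Txn1, at a distance of 0.014. Gpx1, the abundant cytosolic peroxidase, was higher in OGT-KO, at 184 FPKM in WT and 231 in OGT-KO at 0 h and at 234 and 313 at 24 h. Prdx5, a peroxiredoxin outside the 10, was higher in OGT-KO too, at 81.5 against 104 FPKM in WT and knockout at 0 h and 57.0 against 67.6 at 24 h.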
